A study of Mus musculus with 8 samples.

Results

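The genes for tumor necrosis factor, its receptors and the adaptor proteins below them were examined in mouse macrophages with and without gasdermin D. They were chosen by name, with earlier results of these data known. Chosen were the ligand Tnf, its receptors Tnfrsf1a and Tnfrsf1b, and the TNF receptor-associated factors Traf1 to Traf6. Il17ra, which encodes a receptor chain whose signal also runs through a TRAF, was added to them. These are 10 of the 54532 genes in the count table, and all 10 had enough reads to be among the 12911 genes tested. None of them passed an adjusted p under 0.05 in edgeR, where 0.349% of all genes did, and DESeq2 called Traf2 and Tnfrsf1b, with 2.26% of all genes. Levels of Traf2, Traf4, Tnfrsf1b and Traf3 were lower in every Gsdmd-/- library than in any WT library, with means of 53.2% to 85.3% of WT, as was so for 4.12% of all genes (7.60% in either direction). Traf4 rested on 13 to 36 counts per library, and its log2 fold change went from -0.90 to -0.67 without WT 2 and WT 3. That of Traf3 went from -0.23 to -0.14 without Gsdmd-/- 3. The mean of Tnf was higher in Gsdmd-/- macrophages, with overlapping libraries and a log2 fold change that went from 0.63 to 0.10 without WT 2 and WT 3.

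Bone marrow cells turn into macrophages when cultured with a growth factor, and such BMDMs (bone marrow-derived macrophages) were the cells used. The study sequenced RNA of 4 libraries from wild-type (WT) and 4 from Gsdmd-/- cells, all labelled as having received no treatment, in order to see how macrophages without gasdermin D, the protein that forms membrane pores in pyroptosis, differ in gene expression. According to the culture protocol, marrow came from female C57BL/6J mice of 6 to 8 weeks and was kept for 6 days in 20 ng/ml macrophage colony-stimulating factor. WT mice were purchased, and Gsdmd knockout mice were a gift of another laboratory, so that genotype and origin of the mice cannot be told apart. No source states that the libraries are from different mice, so the p-values measure only the spread between libraries, which may be technical.

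TNF is made as a membrane protein, is cut from the cell surface by the protease ADAM17, and binds TNF receptor 1, which most cells carry, or TNF receptor 2, which is mostly found on immune and endothelial cells. TNF receptor 1 recruits the adaptor TRADD, the kinase RIPK1 and TRAF2, and this complex activates the NF-kappaB and MAP kinase pathways or, under other conditions, cell death. TRAF proteins are shared adaptors: most are ubiquitin ligases, and TRAF6 serves the IL-1, Toll-like and IL-17 receptors. Macrophages are a main source of TNF as well as a target of it.

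Total counts ranged from 14935114 to 16794810 per library, and the ranges of the genotypes overlapped. Levels are given in CPM, the reads of a gene scaled to a common library size. A gene without reads may have had up to 3, or 0.177 to 0.199 CPM, a limit that covers counting error only. Positions of genes are given for the build GRCm38 from GENCODE M21. Gsdmd (chr15:75862327-75867408) had between 1039 and 1570 counts in the WT libraries and between 241 and 307 in the Gsdmd-/- libraries, with a log2 fold change of -2.22 (edgeR quasi-likelihood test, adjusted p = 4.665e-05). Of 9 macrophage markers, 8 were above 3 counts in every library and Marco in 3 WT libraries, and their summed level was 15342 to 23464 CPM in WT and 19408 to 23404 CPM in Gsdmd-/- libraries. The neutrophil list summed to at most 6.98 CPM, the T and NK cell list to at most 3.85 CPM and the stromal list to at most 2.86 CPM in any library, with Ly6g, Cd3d, Ncr1 and Lum at 0. The mast cell and basophil list summed to 16.1 to 80.5 CPM in WT and 53.4 to 75.1 CPM in Gsdmd-/- libraries, with Mcpt4 at 0, and the genotypes overlapped for all of these lists. Kit was the largest part of the mast cell and basophil sum in every library, whereas Cpa3 had at most 1.58 CPM. Kit had 71.0, 11.4, 10.3 and 60.0 CPM in WT libraries 1 to 4 and 46.0 to 66.9 CPM in Gsdmd-/- libraries. WT 2 and WT 3 stood apart: on the first principal component of log2 CPM, which held 43.6% of the variance, they scored 45.4 and 38.8, and the other 6 libraries of both genotypes scored between -25.9 and -7.19. Where leaving out these libraries turned the log2 fold change of a member or a named pathway gene, changed its call or moved it by over 1.5 times, the value without them stands beside it. That fit compares WT 1 and WT 4 alone with the Gsdmd-/- libraries. The libraries left out were picked from these same data, which can narrow the spread in WT, so its p-values are descriptive only. In these bulk samples, fewer cells of a type and less RNA per cell cannot be told apart.

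The starts of 3 of the members that separated the genotypes and of Tnf are shown first, because they are the genes that the comparisons below turn on. The 250 bases before the transcription start were taken from a set of RefSeq promoter windows for the build GRCm38.p6. The set used held a window for 9 of the 10 members and none for Il17ra, which does not mean that RefSeq lacks this gene. Each is printed 5′ to 3′ on the strand of the gene, with matches to the searched motifs in capitals. The windows are chr17:35202008-35202257 on the minus strand for Tnf, chr4:145246871-145247120 on the minus strand for Tnfrsf1b, chr2:25546941-25547190 on the minus strand for Traf2, and chr12:111166120-111166369 on the plus strand for Traf3.
Tnf: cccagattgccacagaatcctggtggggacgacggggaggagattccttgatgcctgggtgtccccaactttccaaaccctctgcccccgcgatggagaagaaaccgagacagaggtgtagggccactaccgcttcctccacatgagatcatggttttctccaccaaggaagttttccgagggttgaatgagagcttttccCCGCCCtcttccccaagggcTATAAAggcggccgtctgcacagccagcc
Tnfrsf1b: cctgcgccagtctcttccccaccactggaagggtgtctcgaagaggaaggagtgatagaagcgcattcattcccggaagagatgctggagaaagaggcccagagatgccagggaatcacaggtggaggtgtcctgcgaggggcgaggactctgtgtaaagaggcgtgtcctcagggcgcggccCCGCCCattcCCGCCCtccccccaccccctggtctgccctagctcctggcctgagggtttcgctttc
Traf2: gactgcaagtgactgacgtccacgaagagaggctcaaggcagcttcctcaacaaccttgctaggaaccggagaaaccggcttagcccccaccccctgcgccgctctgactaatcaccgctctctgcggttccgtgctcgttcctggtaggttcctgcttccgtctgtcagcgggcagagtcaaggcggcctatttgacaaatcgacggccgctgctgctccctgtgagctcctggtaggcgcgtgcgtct
Traf3: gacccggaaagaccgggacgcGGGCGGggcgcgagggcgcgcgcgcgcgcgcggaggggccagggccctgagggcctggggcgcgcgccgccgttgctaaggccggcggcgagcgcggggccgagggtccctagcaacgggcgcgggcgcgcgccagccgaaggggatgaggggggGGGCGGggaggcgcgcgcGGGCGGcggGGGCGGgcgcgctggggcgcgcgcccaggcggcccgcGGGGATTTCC
Motifs were searched on both strands. They were a TATA box (TATAAA), a GC box (GGGCGG), an AP-1 site (TGANTCA) and the NF-kappaB consensus, and no match in a member overlapped another. Tnf was the 1 member with a TATA box, which lay 29 bases before the start, and 12.37% of 32841 windows of the same length held one. A GC box was found in 6 of the 9 members (Tnf, Tnfrsf1b, Traf3, Traf4, Traf5 and Traf6) and in 32.75% of all windows. The NF-kappaB consensus was found in Traf3 and in 7.253% of all windows, and the AP-1 site in no member and in 6.751% of all windows. GC content ranged from 48.0% in Traf1 to 85.2% in Traf3. Traf2, with the lowest p of the members, and Tnfrsf1a and Traf1 had no match to any of these letters in the window. These matches describe the sequence and are not evidence of binding.

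Levels were first compared between the members, as CPM per kilobase of exon. Both receptors were far above the ligand and the adaptors. Tnfrsf1b, which encodes TNF receptor 2, stood at 159.6 ± 8.83 (SD, n = 4) in WT and at 133 ± 5.61 (SD, n = 4) in Gsdmd-/- cells, and ranked 289th of 12906 genes by its mean over the 8 libraries. Tnfrsf1a, which encodes TNF receptor 1, followed with 69.5 ± 3.94 and 59.9 ± 4.86 CPM per kilobase, respectively. In both genotypes no library's level of Tnfrsf1a reached that of Tnfrsf1b. The ratio of Tnfrsf1b to Tnfrsf1a per length was 2.31 ± 0.242 (SD, n = 4) in WT and 2.24 ± 0.243 (SD, n = 4) in Gsdmd-/- cells, and the libraries overlapped.

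Tnf followed with 17.6 ± 9.39 CPM per kilobase in WT and 27.1 ± 4.05 in Gsdmd-/- cells. The next 4 genes lay close together in WT, with Il17ra at 7.31 ± 1.44, Traf5 at 6.88 ± 1.38, Traf3 at 6.36 ± 0.258 and Traf6 at 5.21 ± 0.979 CPM per kilobase, and each overlapped its neighbour in this order, as did Tnf and Il17ra. Traf2 stood below them at 3.16 ± 0.337 without overlap. Traf1 (0.950 ± 0.402) and Traf4 (0.556 ± 0.121) were last and overlapped each other in WT. In Gsdmd-/- cells the order was the same except that Traf6 (5.53 ± 0.534) was above Traf3 (5.43 ± 0.660), and the overlapping neighbours were Traf5 with Traf6 and Traf6 with Traf3.

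**Figure D1:**
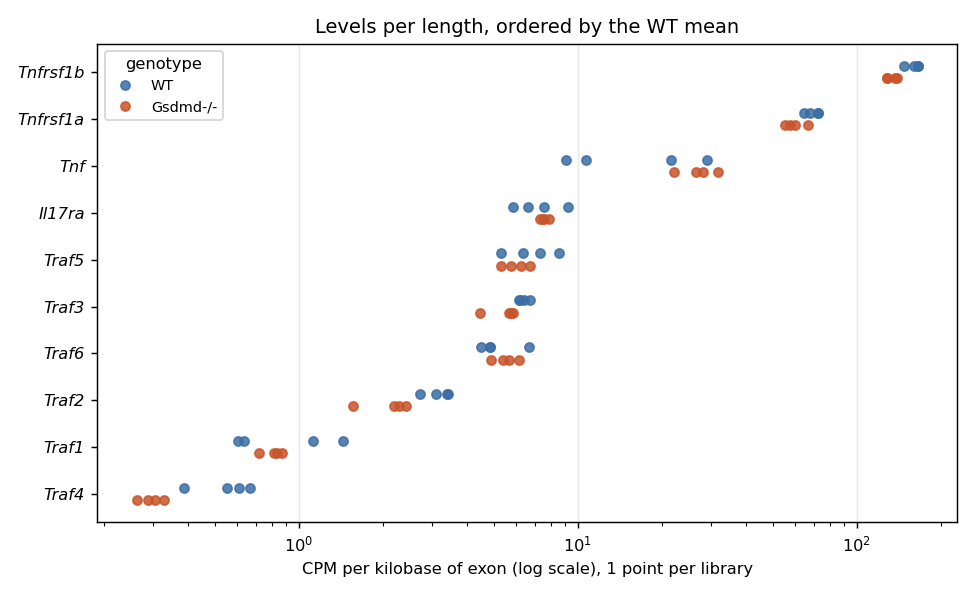
Level of each gene per kilobase of exon (CPM per kilobase, log scale) with 1 point per library, ordered by the mean of WT, with WT in blue and Gsdmd-/- in orange. Both receptors lie above all other members, Tnf spreads from 9.06 to 29.0 in WT, and Traf4 lies lowest.

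The comparison between the genotypes asks which genes of this pathway differ in resting macrophages when Gsdmd is lost. The rates over all 12911 genes tested give the background. The members were chosen with earlier results of these data known, so counts above these rates are a description and not an independent test. An adjusted p under 0.05 (Benjamini-Hochberg over all genes) was reached by 45 genes (0.349%, of which 0.209% lower and 0.139% higher in Gsdmd-/- cells) and by none of the 10 members, while at an unadjusted p under 0.05 there were 1555 genes (12.0%) and 5 members. These were Traf2, Traf4, Tnfrsf1b, Tnfrsf1a and Traf3, all lower in Gsdmd-/- cells, a direction in which 7.30% of all genes passed, with 4.74% in the other. When 1 library was left out, between 3 and 6 members passed, 3 of them without WT 3, Gsdmd-/- 1 or Gsdmd-/- 2, while the share of all genes lay between 8.04% and 20.5%. Tnfrsf1a passed in 3 and Traf3 in 2 of these 8 fits. A looser rule asked for an unadjusted p under 0.05 and a log2 fold change of 0.5 or more in size, and took 623 genes (4.83%) and 2 members, Traf2 and Traf4, both lower, as were 3.28% of all genes, with 1.54% higher. The libraries did not overlap between the genotypes for 981 genes (7.60%) and for 4 members, all lower, a direction found in 4.12% of all genes, with 3.48% in the other. The log2 fold change was below 0 for 7 of the 10 members and for 51.5% of all genes, and its median was -0.22 in the members and -0.0068 in all genes.

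**Figure D2:**
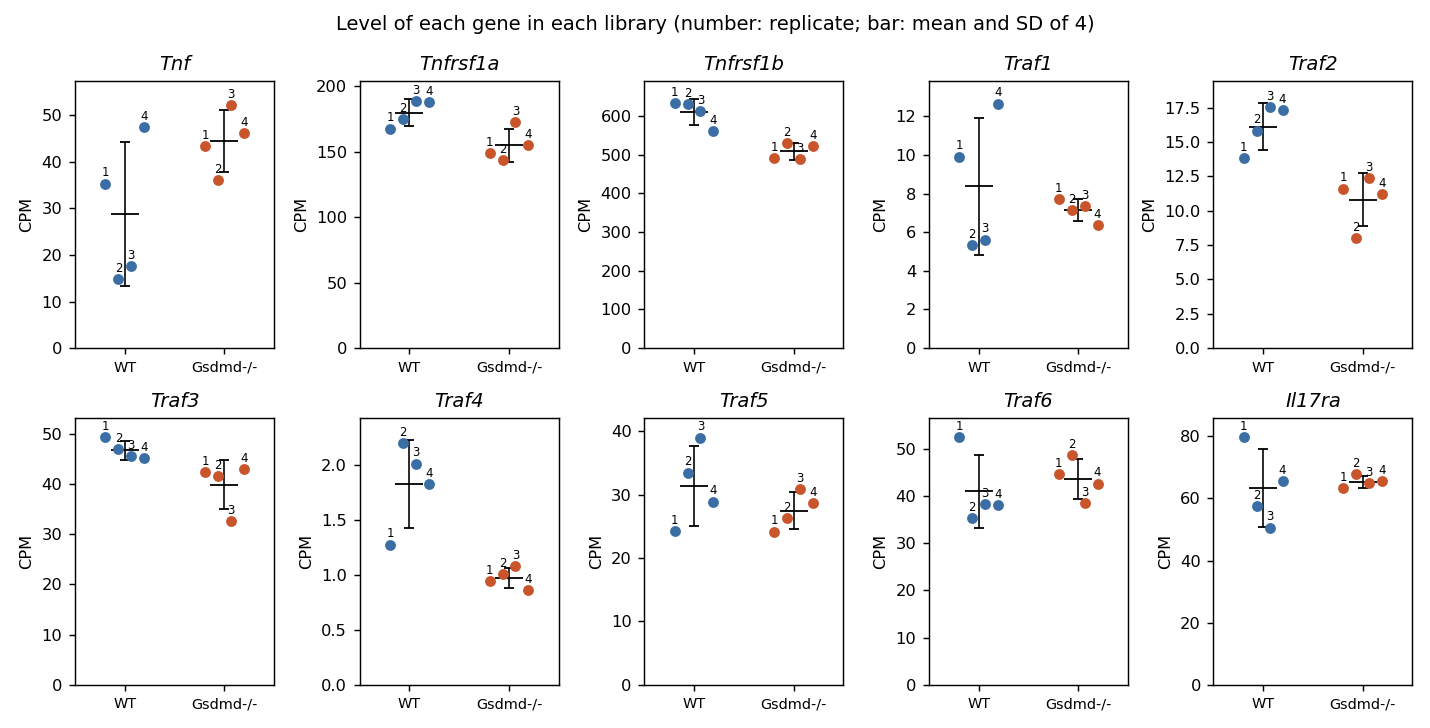
Level of each gene in CPM (linear axes from 0), with 1 numbered point per library and the mean and SD of 4 libraries per genotype. The genotypes separate for Tnfrsf1b, Traf2, Traf3 and Traf4, and for Tnf the WT libraries 2 and 3 lie at 14.8 and 17.6 CPM, below all others.

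Tnf (ENSMUSG00000024401, chr17:35199381-35202007), the ligand, had 35.3, 14.8, 17.6 and 47.5 CPM in WT libraries 1 to 4. It had 43.4, 36.1, 52.1 and 46.1 CPM in Gsdmd-/- libraries 1 to 4. WT 4 lay within the range of the Gsdmd-/- libraries, WT 1 was just under it, and WT 2 and WT 3 were far below. WT averaged 28.8 ± 15.4 CPM and Gsdmd-/- cells 44.5 ± 6.63 CPM (SD, n = 4 each). The resulting log2 fold change of 0.63 (95% interval -0.084 to 1.34) was not past the threshold (edgeR, adjusted p = 0.489). Without WT 2 and WT 3, the log2 fold change was 0.10 (adjusted p = 0.870 in edgeR), and without WT 4 it was 0.98 (adjusted p = 0.102). Leaving out WT 2 alone gave 0.41, and leaving out WT 3 alone gave 0.45. The size of the difference in Tnf therefore depended on which WT libraries were used. Of the 9 macrophage markers, 6 were lowest among the WT libraries in WT 2 and WT 3 and 3 were highest there. Of the 6 mast cell and basophil markers, 4 were lowest and 0 were highest there. Kit of that list, picked after its values were seen, had 11.4 and 10.3 CPM there and 46.0 to 71.0 CPM in the other 6 libraries. Chosen as examples after their values were seen, Cd68 had 414 and 424 CPM in WT 2 and WT 3 and 621 to 849 CPM in the other 6 libraries, whereas Mertk had 249.6 and 212 CPM there and 101 to 142 CPM in the others. Whether these differences have a part in the values of Tnf was not tested.

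Tnfrsf1a (ENSMUSG00000030341, chr6:125349362-125362484) encodes TNF receptor 1, the receptor with a death domain. It had 168, 175, 189 and 188 CPM in WT and 149, 143, 173 and 155 CPM in Gsdmd-/- libraries. Gsdmd-/- 3 reached into the WT range, and the other 3 Gsdmd-/- libraries were below every WT library. Its log2 fold change was -0.21 (95% interval -0.40 to -0.026, adjusted p = 0.358 in edgeR).

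Tnfrsf1b (ENSMUSG00000028599, chr4:145213463-145246870) encodes TNF receptor 2, which has no death domain and binds TRAF2 directly. Its level was 634, 631, 612 and 561 CPM in WT and 491, 530.1, 488 and 523 CPM in Gsdmd-/- libraries. The lowest WT library was above the highest Gsdmd-/- library. With 39982 reads in WT and 32837 in Gsdmd-/- libraries, it was the most deeply counted member. The Gsdmd-/- mean was 83.4% of the WT mean, with a log2 fold change of -0.26 (95% interval -0.44 to -0.088, adjusted p = 0.235 in edgeR). DESeq2 gave an adjusted p of 0.0323 for the same difference, with a log2 fold change of -0.27. The unadjusted p in edgeR was under 0.05 in all 8 fits that left out 1 library.

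Some marker genes, chosen after their values were seen, differed by a like amount. Itgax, an integrin chain that is used as a dendritic cell marker and is also made by cultured macrophages, had 2206 to 2346 CPM in WT and 1653 to 2080 CPM in Gsdmd-/- libraries (log2 fold change -0.25, adjusted p = 0.337 in edgeR). It made up nearly all of the summed dendritic cell list, which did not overlap between the genotypes (2211 to 2350 CPM in WT, 1657 to 2083 CPM in Gsdmd-/-), with 5 of 7 markers above 3 counts in at least 1 library, 2 in every library, and Siglech at 0. The macrophage marker Adgre1, which encodes F4/80, had a log2 fold change of -0.24 and likewise did not overlap (adjusted p = 0.310 in edgeR). Of the 8 macrophage markers tested, however, 5 were below 0 and 3 above, which were Lyz2 (0.20), Cd68 (0.16) and Itgam (0.11). Whether these have a part in the receptor values was not tested.

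Traf2 (ENSMUSG00000026942, chr2:25517982-25546940) encodes the TRAF that joins both TNF receptors to the ubiquitin ligases cIAP1 and cIAP2. It had 13.8, 15.8, 17.5 and 17.3 CPM in WT and 11.6, 7.98, 12.4 and 11.2 CPM in Gsdmd-/- libraries. All Gsdmd-/- libraries were below all WT libraries, and Gsdmd-/- 2 was the lowest. WT averaged 16.1 ± 1.72 CPM and Gsdmd-/- cells 10.8 ± 1.93 CPM (SD, n = 4 each), or 66.9% of WT. Traf2 had the lowest p of the members and ranked 225th of all genes tested, with a log2 fold change of -0.58 (95% interval -0.91 to -0.25, adjusted p = 0.175 in edgeR). Of the tests tried, DESeq2 alone called it, with an adjusted p of 0.0265. Without WT 2 and WT 3 its log2 fold change was -0.53, and leaving out Gsdmd-/- 2 gave -0.46, which is under the fold of 0.5.

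Traf4 (ENSMUSG00000017386, chr11:78158499-78165589), a TRAF that is best known from epithelial and developing tissue, had few reads, though more than the limit of 3 counts in every library. It had 21, 36, 33 and 30 counts in WT and 16, 17, 17 and 13 counts in Gsdmd-/- libraries. These are 1.28 to 2.20 CPM in WT and 0.862 to 1.08 CPM in Gsdmd-/- cells, without overlap. The Gsdmd-/- mean was 53.2% of the WT mean, with a log2 fold change of -0.90 (95% interval -1.46 to -0.35, adjusted p = 0.209 in edgeR). This was the largest difference in size among the members, but it rests on 120 reads in WT and 63 in Gsdmd-/- libraries, where counting alone gives a coefficient of variation of 18.3% and 25.2% per library. WT 2 and WT 3 were its highest libraries, and without them the log2 fold change was -0.67 (adjusted p = 0.407 in edgeR), so that Traf4 no longer met the looser rule. Ighm, an immunoglobulin chain on the B cell list that was picked after its values were seen, was also highest in WT 2 and WT 3, with 8.98 and 8.73 CPM against 0.464 to 1.54 CPM in the other 6 libraries. Of the 6 genes on that list Ighm was above 3 counts in every library, Cd79a and Cd79b were so in some WT libraries and the other 3 in none, and its sum was 1.34 to 9.10 CPM in WT and 0.464 to 1.60 CPM in Gsdmd-/- libraries. A part of B cells in the values of Traf4 was not tested.

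Traf3 (ENSMUSG00000021277, chr12:111166370-111267153) encodes the TRAF that holds the kinase NIK at a low level and so limits non-canonical NF-kappaB signaling. Its level was 49.4, 47.0, 45.6 and 45.2 CPM in WT and 42.4, 41.6, 32.7 and 42.9 CPM in Gsdmd-/- libraries. The genotypes did not overlap, although Gsdmd-/- 3 was well below its group and the gap between the closest libraries was small. Traf3 differed by a log2 fold change of -0.23 (95% interval -0.45 to -0.0064, adjusted p = 0.398 in edgeR). Without Gsdmd-/- 3 it was -0.14 (adjusted p = 0.646 in edgeR).

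Traf1 (ENSMUSG00000026875, chr2:34941750-34961772), which is itself induced by NF-kappaB and lacks the RING domain of the other TRAFs, varied among the WT libraries like Tnf. It had 9.92, 5.32, 5.62 and 12.7 CPM in WT and 7.70, 7.16, 7.36 and 6.37 CPM in Gsdmd-/- libraries. WT 1 and WT 4 were above all Gsdmd-/- libraries, and WT 2 and WT 3 were below all of them. Over all libraries the log2 fold change was -0.23 (95% interval -0.81 to 0.36, adjusted p = 0.776 in edgeR). Without WT 2 and WT 3 it was -0.66 (adjusted p = 0.0827), which met the looser rule, and without WT 4 it was 0.043.

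Traf5 (ENSMUSG00000026637, chr1:191997205-192092559) is a close relative of Traf3 and can act with TRAF2. It had 24.3, 33.5, 39.0 and 28.9 CPM in WT and 24.2, 26.3, 30.8 and 28.7 CPM in Gsdmd-/- libraries, which overlapped, with WT 2 and WT 3 the highest. Its log2 fold change was -0.19 (95% interval -0.52 to 0.13, adjusted p = 0.656 in edgeR) and was 0.045 without WT 2 and WT 3. Leaving out 1 library moved it between -0.30 (without WT 1) and -0.072 (without WT 3). Its exons overlap 205 bases of an antisense gene, Gm26879, and 65 bases of Mir3473c, which had 5 and 2 counts over all libraries against 3832 for Traf5. Without stated strand use, reads of the antisense gene cannot be told apart from those of Traf5.

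Traf6 (ENSMUSG00000027164, chr2:101678429-101701669), the ubiquitin ligase of IL-1, Toll-like and IL-17 receptor signaling, had 52.5, 35.4, 38.2 and 38.2 CPM in WT and 44.7, 48.6, 38.5 and 42.7 CPM in Gsdmd-/- libraries. WT 1 was the highest of all 8 libraries, whereas the other 3 WT libraries were just below every Gsdmd-/- library. Its log2 fold change was 0.087 (95% interval -0.21 to 0.38, adjusted p = 0.837 in edgeR), and it was 0.23 without WT 1 (adjusted p = 0.342) and -0.059 without WT 2 and WT 3. It was 0.016 without WT 2 alone and 0.026 without Gsdmd-/- 2.

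Il17ra (ENSMUSG00000002897, chr6:120463247-120487559), the IL-17 receptor chain that signals through the adaptor Act1 to TRAF6, had 79.7, 57.4, 50.6 and 65.5 CPM in WT and 63.3, 68.0, 65.0 and 65.5 CPM in Gsdmd-/- libraries. The Gsdmd-/- libraries lay close to each other and inside the WT range. Il17ra had a log2 fold change of 0.047 (95% interval -0.24 to 0.33, adjusted p = 0.915 in edgeR), and without WT 2 and WT 3 it was -0.15 (adjusted p = 0.628).

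**Figure D3:**
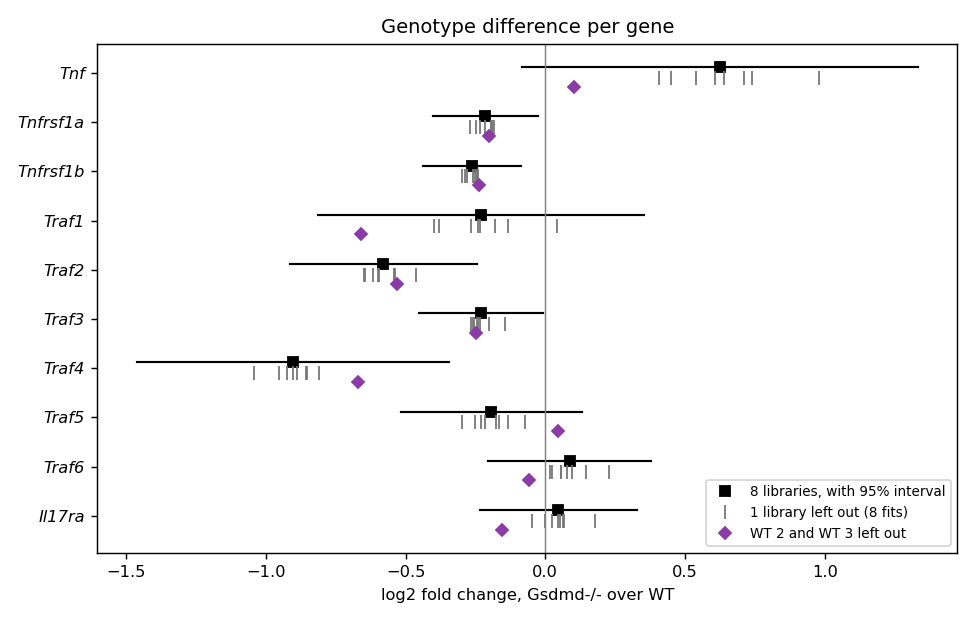
Log2 fold change of each gene, Gsdmd-/- over WT, with its 95% interval over all 8 libraries (squares), the values of the 8 fits that left out 1 library (ticks) and the value without WT 2 and WT 3 (diamonds). Tnfrsf1b, Tnfrsf1a, Traf2, Traf3 and Traf4 stay below 0 throughout, and Tnf moves from 0.63 to 0.10 without WT 2 and WT 3.

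Spread within a genotype differed between the members. The coefficient of variation over the WT libraries was 53.5% for Tnf and 42.3% for Traf1, compared with 14.9% and 7.91% over the Gsdmd-/- libraries. It was 5.53% for Tnfrsf1b and 4.06% for Traf3 in WT. In 7 of the 10 members (70%), and in 71.8% of the 12910 genes with a defined value, it was larger in WT, so that the members did not stand out. WT 2 and WT 3 were the lowest pair of WT libraries for Tnf, Traf1 and Il17ra and the highest pair for Traf4 and Traf5, and they were the lowest or the highest pair for 58.1% of all genes tested.

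The makeup of the TRAF family was described by the share of each gene in the summed CPM per kilobase of Traf1 to Traf6. This sum was 23.1 ± 0.784 (SD, n = 4) in WT and 20.2 ± 0.428 (SD, n = 4) in Gsdmd-/- cells. Traf2 held 13.7% ± 1.34 (SD, n = 4) of it in WT and 10.5% ± 1.97 (SD, n = 4) in Gsdmd-/- cells, and the libraries overlapped, with 11.8% in WT 1 and 12.3% in Gsdmd-/- 3. Traf4 held 2.40% ± 0.525 and 1.47% ± 0.167, without overlap. Traf6 held 22.6% ± 4.38 in WT and 27.4% ± 2.44 in Gsdmd-/- cells, and WT 1, with 29.0%, lay in the Gsdmd-/- range. Traf5 (29.7% and 29.8%), Traf3 (27.6% and 26.8%) and Traf1 (4.13% and 4.02%) had nearly the same mean share in both. These shares use the same counts as the comparison of single genes and were not tested.

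**Figure D4:**
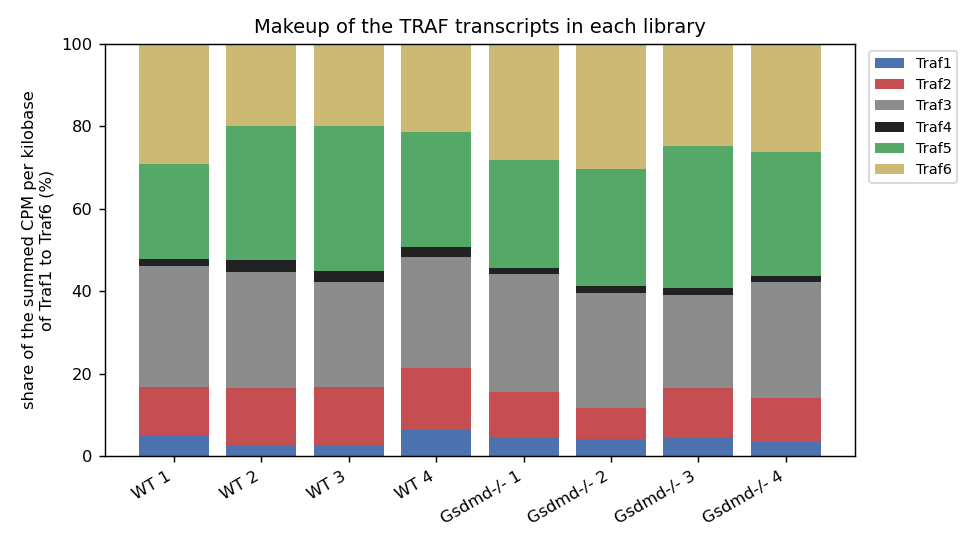
Share of each TRAF gene in the summed CPM per kilobase of Traf1 to Traf6 (percent), with 1 stacked bar per library. Traf5, Traf3 and Traf6 make up most of each bar, Traf2 takes 7.72% to 12.3% in Gsdmd-/- libraries and at least 11.8% in WT libraries, and Traf4 is a thin band.

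The other genes of the pathway were taken from 9 lists written by function, with earlier results of these data known. Of 126 genes listed, 99 were tested. In edgeR none had an adjusted p under 0.05, whereas DESeq2 called 3, Nfkb2, Tab1 and Traf3ip3, all lower in Gsdmd-/- cells, where it called 2.26% of all genes. In edgeR 7 genes (7.07%) met the looser rule, compared with 4.83% of all genes. Of these, 6 were lower in Gsdmd-/- cells and 1 was higher. The median log2 fold change of the 99 genes was -0.072, with 62 below 0. The genotypes did not overlap for 8 genes that were lower (8.08%) and 2 that were higher (2.02%), compared with 4.12% and 3.48% of all genes. Without WT 2 and WT 3, 14 of 100 genes met the looser rule, 13 of them lower, compared with 6.19% of all genes in that fit. These held 3 of the 7 genes (Tnfaip3, Nfkbie and Traf3ip3), and the other 4 (Rhbdf1, Tnfrsf18, Eda2r and Nfkbiz) no longer met it. With WT 1 and WT 4 as the only WT libraries, Tnfaip3, Nfkbie and Ccl5 had an adjusted p under 0.05, as did 1.21% of all genes. Both the counts and the genes therefore depended on the WT libraries used.

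Of the 5 genes for the release of TNF, 4 were tested and 1 met the looser rule. Rhbdf1, an inactive rhomboid protein that helps ADAM17 to the cell surface, showed -0.93 on the log2 scale (adjusted p = 0.356 in edgeR), with 6.54 and 5.86 CPM in WT 2 and WT 3 and 1.95 to 2.62 CPM in the other 6 libraries. Its value was -0.038 without WT 2 and WT 3 (adjusted p = 0.974), and the rule was not met. Rhbdf2 of the same list, also named after its value was seen, averaged 59.0 CPM in WT and 58.2 CPM in Gsdmd-/- cells. Its log2 fold change was -0.020, and -0.17 without WT 2 and WT 3. Adam17 itself, chosen after its value was seen, averaged 169 ± 18.5 CPM in WT and 170.2 ± 2.02 CPM in Gsdmd-/- cells (SD, n = 4 each). On the log2 scale this difference was 0.013, and -0.11 without WT 2 and WT 3. Of the other ligands of the TNF superfamily, 9 of 17 were tested and none met the looser rule. The lowest p among them belonged to Tnfsf13b, the gene of the B cell survival factor BAFF, whose mean was 0.518 CPM in WT and 0.944 CPM in Gsdmd-/- cells (log2 fold change 0.86, adjusted p = 0.543 in edgeR). This rested on WT 2 and WT 3, with 0.122 and 0.244 CPM, and without them the value was 0.14 (adjusted p = 0.922), while Tnfsf14 (from -0.018 to -0.78) and Tnfsf9 (from -0.70 to -1.32) then met the rule.

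Among the other receptors of the TNF receptor superfamily, 15 of 23 were tested and 2 met the looser rule, both lower. Tnfrsf18, which encodes the T cell costimulator GITR, showed -1.35 on the log2 scale (adjusted p = 0.269 in edgeR) at a mean of 1.16 CPM in WT, with 1.59 CPM in both WT 2 and WT 3 and at most 0.791 CPM elsewhere. Eda2r, a receptor of the ectodysplasin family, showed -0.56 (adjusted p = 0.408). With WT 2 and WT 3 left out, the values were -0.69 for Tnfrsf18 (adjusted p = 0.641) and -0.50 for Eda2r (adjusted p = 0.573), and neither met the rule, while Tnfrsf9 did, with -1.22. The lowest p went the other way: Tnfrsf12a, the receptor of the cytokine TWEAK, had 7.45 to 9.98 CPM in WT and 10.4 to 12.7 CPM in Gsdmd-/- libraries, without overlap (log2 fold change 0.42, adjusted p = 0.241).

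All 15 partners of TNF receptor 1 and TRAF2 were tested. Tnfaip3, the gene of the ubiquitin-editing enzyme A20 that limits NF-kappaB signaling, met the looser rule with a log2 fold change of -0.55 (adjusted p = 0.319 in edgeR). It had 76.1, 42.6, 41.2 and 75.2 CPM in WT and 39.2 to 40.9 CPM in Gsdmd-/- libraries. The separation in WT 2 and WT 3 was thus slight, and that in WT 1 and WT 4 was large. The fit without WT 2 and WT 3, which leaves WT 1 and WT 4, gave -0.92 (adjusted p = 0.00183). The call of Tnfaip3 thus depended on which WT libraries were used. Cflar, which encodes the caspase-8 inhibitor cFLIP, had the lowest p of the list, with a log2 fold change of -0.34 and an adjusted p of 0.264 (-0.22 and 0.507 without WT 2 and WT 3). Birc2 and Birc3, the genes of the cIAP proteins that TRAF2 recruits, were chosen after their values were seen and had log2 fold changes of 0.0098 and -0.25 (adjusted p = 0.981 and 0.513 in edgeR), and Birc3 had -0.44 without WT 2 and WT 3 (adjusted p = 0.154).

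Of the 10 kinases and kinase partners below the TRAFs, all were tested and none met the looser rule. Tab1, a subunit of the TAK1 kinase complex that TRAF6 and TRAF2 activate, had the lowest p, with 17.7 to 22.4 CPM in WT and 15.3 to 16.4 CPM in Gsdmd-/- libraries and no overlap (log2 fold change -0.40, adjusted p = 0.176 in edgeR and 0.0379 in DESeq2). Map3k14, the gene of NIK, which TRAF3 and TRAF2 hold down, was named after its value was seen. It had 7.61 to 11.1 CPM in WT and 5.97 to 7.33 CPM in Gsdmd-/- libraries (log2 fold change -0.41, adjusted p = 0.344), and its value was -0.17 without WT 2 and WT 3 (adjusted p = 0.729). Of 12 genes on the route from IL-1 and Toll-like receptors to TRAF6, all were tested, 9 were below 0 and none met the looser rule. The adaptor Myd88 had the lowest p, with a log2 fold change of -0.36 (adjusted p = 0.380 in edgeR), and met the rule with -0.55 when WT 2 and WT 3 were left out (adjusted p = 0.124).

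Of the 11 other IL-17 receptors, ligands and adaptors, 4 were tested and none met the looser rule. Il17d had the lowest p at under 1 CPM in every library (log2 fold change -0.90, adjusted p = 0.541 in edgeR). All 13 proteins that bind or limit TRAFs were tested, and 1 met the looser rule. Traf3ip3, which encodes a membrane protein that binds TRAF3, had 8.95, 7.88, 8.24 and 10.5 CPM in WT and 5.21, 4.79, 6.41 and 6.57 CPM in Gsdmd-/- libraries. The genotypes did not overlap, and the log2 fold change was -0.63 (adjusted p = 0.148 in edgeR and 0.0235 in DESeq2). When WT 2 and WT 3 were left out, Tnip3 (from -0.68 to -1.17) and Traip (from 0.38 to 0.79) of this list also met the rule.

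Of 20 genes known to be induced by TNF through NF-kappaB, 17 were tested, 11 were below 0 and the median log2 fold change was -0.20, the lowest of the 9 lists, compared with 51.5% below 0 and a median of -0.0068 over all genes. The looser rule was met by 1 gene in each direction with all libraries, and by 6 genes without WT 2 and WT 3, all lower, as were 418 of 13288 genes in that fit. These were Ccl5, Nfkbie, Cxcl2 (from -0.41 to -1.03), Il1b (from -0.75 to -1.19), Nfkbia (from -0.20 to -0.57) and Relb (from -0.33 to -0.65). Nfkbie, which encodes the inhibitor IkappaB-epsilon, was lower (log2 fold change -0.66, adjusted p = 0.295 in edgeR), and had -0.99 without WT 2 and WT 3 (adjusted p = 0.0383). Ccl5, a chemokine gene, went from -0.51 (adjusted p = 0.840) to -1.44 (adjusted p = 0.00536) when these were left out, but voom gave 0.69 with all libraries, so that its direction was not stable. Nfkbiz, which encodes the nuclear regulator IkappaB-zeta, was higher with 0.672 to 2.01 CPM in WT and 2.06 to 3.97 CPM in Gsdmd-/- libraries (log2 fold change 0.87, adjusted p = 0.365), and without WT 2 and WT 3 the value was 0.45 and no longer met the rule. The lowest p was that of Nfkb2, the NF-kappaB subunit of the non-canonical route, with 43.8 to 54.6 CPM in WT and 34.4 to 38.3 CPM in Gsdmd-/- libraries and a log2 fold change of -0.42 (adjusted p = 0.115 in edgeR and 0.00606 in DESeq2).

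**Figure D5:**
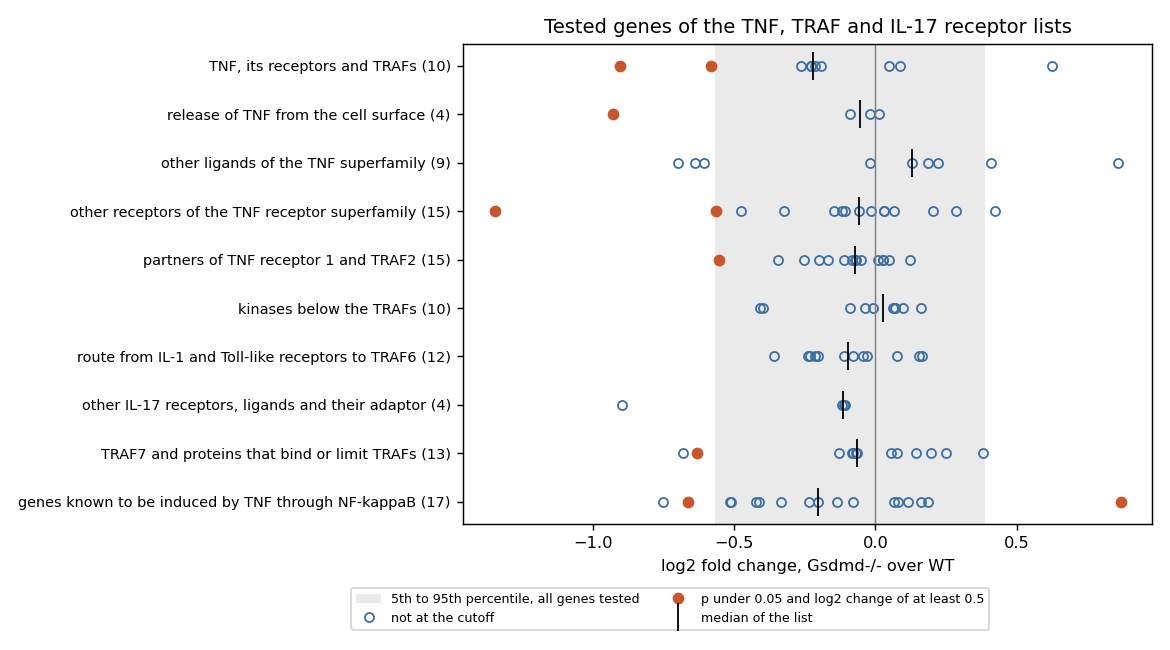
Log2 fold change, Gsdmd-/- over WT, of each tested gene in the list of members and in the 9 pathway lists, with the number tested in brackets. Filled points met the looser rule (unadjusted p under 0.05 and a log2 fold change of 0.5 or more in size), black ticks are list medians, and the grey band from -0.57 to 0.39 holds the 5th to 95th percentile of all genes tested.

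Genes whose pattern over the 8 libraries was most like that of a member were found by the root mean square difference of log2 CPM, each gene centred on its mean, among 12036 genes with at least 1 CPM. For Tnf these were the predicted gene Gm10156 (0.0995), the cholesterol hydroxylase gene Ch25h (0.151) and Gm3362 (0.155), where the median of all genes was 0.662. For Traf2 they were the spermine oxidase gene Smox (0.0727), the protein C receptor gene Procr (0.131) and 4632415L05Rik (0.137), with a median of 0.409. Traf4 was nearest to Zfp595 (0.119), Pdlim4 (0.127) and Dnajb2 (0.131), with a median of 0.501. Counting alone gives Traf4 a coefficient of variation of 18.3% in WT and 25.2% in Gsdmd-/- libraries, so its nearest genes may match counting error. Tnfrsf1b was nearest to the Notch inhibitor gene Numb (0.0426), the kinase gene Rps6ka1 (0.0462) and the telomerase component gene Tep1 (0.0470), with a median of 0.254. These values describe likeness over 8 libraries of both genotypes, WT 2 and WT 3 included, and no test was made on them. The nearest of 12036 genes lie below the median by construction.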

How the data were processed

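The deposited table held read counts per gene for 8 libraries, not normalized by the authors, made from TruSeq libraries of total RNA (build mm10 per the submitters' processing notes; the aligner, counter, annotation and strand use of the counting are not given in the sources used here). Of 54532 genes, 54495 were found by identifier in GENCODE M21 (GRCm38), which gave positions and exon lengths. TMM scaling and the filterByExpr filter of edgeR 4.0.16 (R 4.3.3) were applied to the counts, and the genotypes were compared by the two-sided quasi-likelihood test with genotype as the only term and Benjamini-Hochberg adjustment over 12911 genes. CPM are per TMM-scaled library size of the filtered genes, and their log2 values have 2 reads added as prior count. Groups came from the genotype labels, with 4 libraries each.

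The members and gene lists were chosen with earlier results of these data known. Named were every member, Gsdmd, the genes of the lists at an adjusted p under 0.05 or at the looser rule, the gene with the lowest p of each list, and the 3 nearest genes of Tnf and of the members with the 3 lowest p. Other genes, markers included, were chosen after their values were seen. Alternatives were limma 3.58.1 voom, DESeq2 1.42.0, normalization by RLE or upper quartile, testing without a filter or on genes with 10 or more counts in all libraries, a replicate block, a log2 fold change of 1 or more, and leaving out each library or WT 2 and WT 3. The fits were also run on simulated counts drawn around the WT mean of each gene, without a shift shared by WT 2 and WT 3. The outcome of that run is not reported here, and it is no support for the calls in these data. Replicate pairs of a genotype differed by more than sampling noise (chi-square per gene 5.92 to 82.0 over 12 pairs), so no library was counted as deposited more than once.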

Additional observations from a re-analysis of the deposited data

Results flagged for a closer look

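Within each genotype, the 10 members were examined for 1 library far from the other 3 by Dixon's gap test, 20 groups in all, of which chance flags about 1 in 20. Traf3 had 32.67 CPM in Gsdmd-/- 3, where the other Gsdmd-/- libraries had 41.58 to 42.92 CPM. Traf6 had 52.46 CPM in WT 1, where the other WT libraries had 35.38 to 38.23 CPM.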

How the results depend on the processing

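Over 16 alternatives, 152 of the 160 log2 fold changes of the 10 members kept their direction and their side of the threshold, 6 turned their direction, and 2 were newly called, those of Tnfrsf1b (-0.27) and Traf2 (-0.58) with DESeq2. The number of members with an adjusted p under 0.05 was 2 with DESeq2 and 0 in all other fits. At the looser rule there were 2 members, and between 1 (without Gsdmd-/- 2, which lost Traf2) and 3 (without WT 4, which added Tnf) when 1 library was left out. Tnf was also added by voom, DESeq2, no filter and the replicate block, and requiring a fold change of 1 or more on the log2 scale left 0 members. Without both WT 2 and WT 3, Traf1 took the place of Traf4, and Traf5 (0.045), Traf6 (-0.059) and Il17ra (-0.15) turned. When 1 library was left out, Traf1 ranged from -0.40 to 0.043 and turned without WT 4, and Il17ra ranged from -0.046 to 0.18 and turned without WT 2 (-0.0023) and without WT 3 (-0.046). The causes were not tested.

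Over all genes, the adjusted p called 45, and 292 with DESeq2, 109 without a filter, 161 without both WT 2 and WT 3, and 14 to 84 when 1 library was left out (84 without WT 4, 14 without WT 3 or Gsdmd-/- 1, 2 or 3, 21 without WT 2 and 22 without Gsdmd-/- 4). The looser rule took 623 genes, and 1204 without a filter, 199 at a log2 fold change of at least 1, and 469 to 1022 when 1 library was left out (1022 without WT 4). Without WT 2 and WT 3 it took 405 higher and 418 lower genes, compared with 199 and 424. Of the pathway genes it took 7, and 14 without both WT 2 and WT 3, 1 at a log2 fold change of at least 1, and 5 to 8 when 1 library was left out. Same-numbered libraries of the genotypes had correlations of deviations between -0.20 and 0.18, so the numbers were not taken to pair them. With the replicate block 25 genes and 0 members had an adjusted p under 0.05, and 3 members met the looser rule. Traf4, with 13 to 36 counts per library, is limited by depth.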
